A study of Mus musculus with 36 samples.

Results

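The genes described here make or mark red blood cells: the alpha-globin genes Hba-a1 and Hba-a2, the beta-globin genes Hbb-bs and Hbb-bt, the carbonic anhydrase genes Car1 and Car2, the heme synthesis gene Alas2, the anion exchanger gene Slc4a1 and the transferrin receptor gene Tfrc. They were chosen by name, as the entries of the count table whose Ensembl identifier carries one of these symbols, and all 9 of 9 were found among 38887 genes. All 9 also passed the filter on low counts in every comparison.

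Red cell precursors make hemoglobin from alpha- and beta-globin chains and heme. They take up iron for heme through the transferrin receptor and place an anion exchanger in their membrane, which works with cytosolic carbonic anhydrases in carbon dioxide transport. Hematopoietic stem cells are not hemoglobin-making cells, whereas globin transcripts are abundant in erythroblasts and reticulocytes. For flow cytometry of bone marrow the study describes lysis of red cells and the erythroid antigen Ter119 among its lineage markers.

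RNA-seq of total RNA was done on sorted bone marrow cells of mice, 5000 cells per library, to compare stem and progenitor cells with and without the interleukin-27 receptor during angiotensin II (Ang II) infusion, which produces aortic aneurysms in this model. The cells were long-term hematopoietic stem cells (LT-HSC; lineage-negative, Sca-1+ c-Kit+ CD150+ CD48−) and a multipotent progenitor gate (HPC-1; CD150− CD48+ within the same compartment) that the sample labels call ST-HSC. All mice lacked Apoe, ate a Western diet from 8 weeks of age and received Ang II or PBS, the vehicle, for 2 weeks. The diet lasted 12 weeks by the study's figure legend for these data, while its methods also name a shorter period. They carried intact Il27ra (WT), 1 disrupted copy (het) or none intact (KO).

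The 17 LT-HSC libraries comprised 1 PBS WT, 3 PBS het, 3 PBS KO, 2 Ang II WT, 4 Ang II het and 4 Ang II KO library, and the 19 HPC-1 libraries 2 PBS WT, 3 PBS het, 3 PBS KO, 3 Ang II WT, 4 Ang II het and 4 Ang II KO library. The labels give no gender, sort date or batch, and do not say whether an LT-HSC and an HPC-1 library came from the same animal, so the p values measure only the spread between libraries. Total counts per library ran from 1980283 to 6861078, with a median of 3139364. Levels are given as CPM, a gene's counts scaled to a common library total after TMM correction for differences in RNA composition. A value of 0 CPM stands for 0 counts, which allows up to 3 counts. Intervals and this limit cover counting error only.

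Il27ra (ENSMUSG00000005465, chromosome 8, 84030294 to 84042589, minus strand, mm10) was read in every library. In LT-HSC it stood at 17.1 CPM in the PBS WT library, 42.7, 24.1 and 25.6 CPM in PBS het, 9.42, 6.94 and 16.3 CPM in PBS KO, 42.9 and 51.8 CPM in Ang II WT, 30.2, 25.4, 27.1 and 32.8 CPM in Ang II het, and 16.3, 11.7, 16.1 and 19.3 CPM in Ang II KO. The KO libraries lay below the het libraries for each agent, while the PBS WT library lay below all 7 het libraries and among the values of KO. In HPC-1 the level was lower and the genotypes overlapped, at 6.07 to 11.9 CPM in 5 WT, 5.46 to 16.5 CPM in 7 het and 4.64 to 11.1 CPM in 7 KO libraries.

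The marker genes matched the cell type labels in all but 1 library. All 10 LT-HSC markers (among them Slamf1, Procr, Hoxb5, Mecom, Fgd5 and Kit) were higher in LT-HSC than in HPC-1, and all 8 HPC-1 markers (among them Cd48, Flt3, Cd34, Dntt and Il7r) were lower, with no defining gene at 0 throughout either cell type. Summed over the list, LT-HSC markers ran from 922 to 2932 CPM (median 2154) in LT-HSC and from 704 to 1386 CPM (median 866) in HPC-1, with Kit the most abundant. The HPC-1 markers, of which Cd34 was the most abundant, ran from 107 to 2152 CPM (median 299.5) in LT-HSC and from 1287 to 2912 CPM (median 1958) in HPC-1. The exception was LT-HSC PBS KO replicate 2, which held the lowest LT-HSC marker sum (922 CPM) and the highest HPC-1 marker sum (2152 CPM) of the LT-HSC libraries, together with 3996 CPM of neutrophil granule genes and 100 CPM of megakaryocyte genes.

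Other libraries stood apart as well. LT-HSC Ang II KO replicate 2 carried 8882 CPM of the 10 neutrophil granule genes and LT-HSC PBS KO replicate 3 carried 1475 CPM, against 29.6 to 127 CPM in the 14 LT-HSC libraries other than these and PBS KO replicate 2. The same 2 libraries led the LT-HSC samples in eosinophil and mast cell genes, at 690.5 and 142 CPM. The 3 LT-HSC WT libraries carried 396, 584 and 647 CPM of the 25 intestinal epithelium genes, and HPC-1 Ang II WT replicate 3 carried 360 CPM. The LT-HSC het and KO libraries lay between 35.7 and 127 CPM for these genes.

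Adult globin RNA was present in every library, at levels that spread widely within a group. Summed over the 4 globin genes, the level ran from 8.996 to 2898 CPM in LT-HSC (median 56.4, n = 17) and from 3.97 to 534 CPM in HPC-1 (median 25.5, n = 19). A few libraries held most of it: LT-HSC PBS KO replicate 3 alone held 53.2% of the 37997 globin counts of all LT-HSC libraries, and HPC-1 Ang II KO replicate 2 held 28.0% of the 5483 globin counts of HPC-1. LT-HSC PBS KO replicate 3 and Ang II KO replicate 2 were highest in globin and also stood apart in neutrophil, eosinophil and mast cell genes. LT-HSC PBS KO replicate 2 was likewise high in neutrophil granule genes, but its globin lay below the median. How these markers relate to globin was not tested. In bulk samples such as these, a different number of globin-bearing cells and a different amount of globin RNA per cell cannot be told apart.

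In LT-HSC of PBS-infused mice the summed globin level was 16.6 CPM in the WT library, 19.4, 56.4 and 776 CPM in the het libraries, and 8.996, 33.5 and 2898 CPM in the KO libraries. After Ang II it was 46.7 and 160 CPM in WT, 42.4, 406.5, 13.6 and 140 CPM in het, and 38.1, 2617, 154 and 434 CPM in KO. The high values belonged to libraries of het and KO mice under either agent, next to at least 1 replicate of the same group at or below the median. Ang II KO held more than 1 of them (2617 and 434 CPM). Genotypes and agents overlapped in LT-HSC.

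The HPC-1 libraries of PBS-infused mice held 9.44 and 49.8 CPM in WT, 3.97, 13.7 and 26.8 CPM in het, and 18.5, 12.9 and 12.1 CPM in KO. After Ang II the sums were 23.6, 75.5 and 174 CPM in WT, 25.5, 299, 169 and 13.4 CPM in het, and 22.2, 534, 171 and 171 CPM in KO. Every PBS library thus lay below 50 CPM, while each Ang II genotype group held at least 1 library above 160 CPM and 1 below 50 CPM. The agents overlapped in WT and het, while the lowest Ang II KO library (22.2 CPM) lay just above the highest PBS KO library (18.5 CPM).

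Libraries above 5 times the median of their cell type were singled out by name as globin-rich. This cut was 282 CPM in LT-HSC and 127 CPM in HPC-1, so the counts of the cell types are not at a common level. In LT-HSC these were PBS het replicate 3, PBS KO replicate 3, Ang II het replicate 2, and Ang II KO replicates 2 and 4. They made up 2 of 7 PBS and 3 of 10 Ang II libraries, and 0 of 3 WT, 2 of 7 het and 3 of 7 KO libraries. In HPC-1 they were Ang II WT replicate 3, Ang II het replicates 2 and 3, and Ang II KO replicates 2, 3 and 4. They made up 0 of 8 PBS and 6 of 11 Ang II libraries, and 1 of 5 WT, 2 of 7 het and 3 of 7 KO libraries. The LT-HSC libraries not named reached at most 2.84 times the median and those of HPC-1 at most 2.96 times. The named libraries began at 7.20 and 6.64 times. Over all genotypes, the median summed globin level in LT-HSC was 33.5 CPM under PBS and 147 CPM under Ang II. In HPC-1 the medians were 13.3 and 169 CPM.

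**Figure D1:**
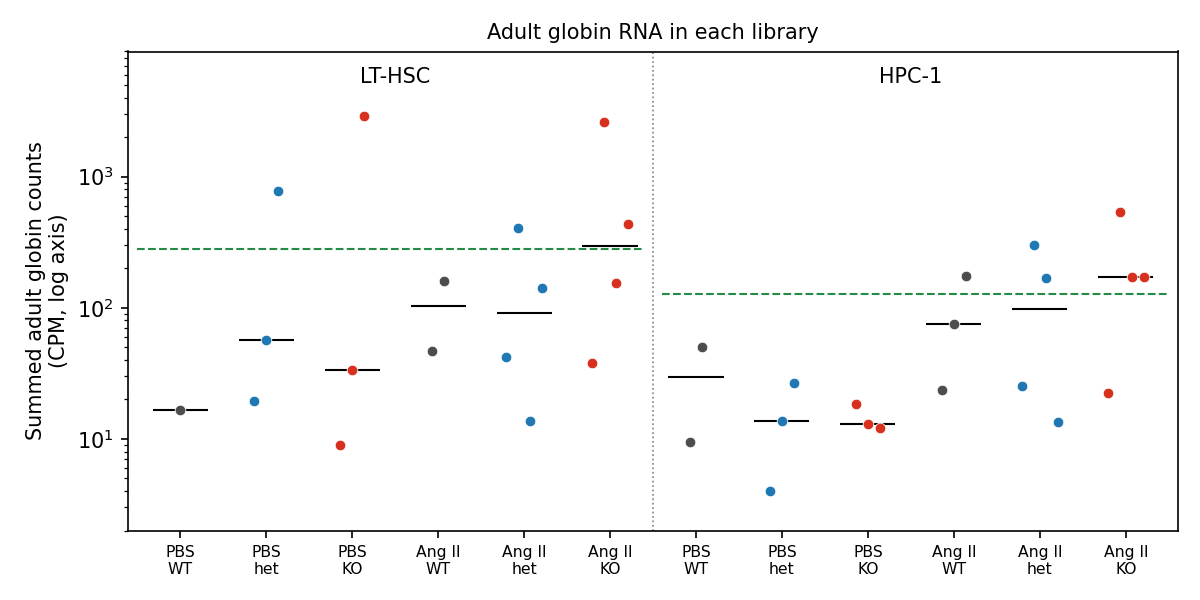
Summed CPM of Hba-a1, Hba-a2, Hbb-bs and Hbb-bt in each library (points; log axis) by cell type, agent and genotype (WT grey, het blue, KO red), with the group median (black bar) and 5 times the median of the cell type (dashed line). LT-HSC libraries run from 8.996 to 2898 CPM with 5 above the line, and HPC-1 libraries from 3.97 to 534 CPM with 6 above it, all of them from Ang II-infused mice.

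As a share of all counts, globin made up 0.307% of LT-HSC PBS KO replicate 3 (20216 counts; 95% Clopper-Pearson interval 0.303% to 0.312%). It made up 0.261% of LT-HSC Ang II KO replicate 2 (6063 counts), 0.0852% of LT-HSC PBS het replicate 3 (4491 counts) and 0.0538% of HPC-1 Ang II KO replicate 2 (1536 counts). At the other end stood LT-HSC PBS KO replicate 1 with 21 counts and HPC-1 PBS het replicate 1 with 12 counts, a share of 0.000357%.

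Markers of the red cell surface followed globin in some of these libraries and not in others. The 7 erythrocyte and erythroblast surface genes (among them Rhag, Epb42 and Hemgn) summed to 56.4 to 432 CPM in LT-HSC (median 87.6) and 33.2 to 175.5 CPM in HPC-1 (median 59.3). Hemgn was the most abundant, and none was at 0 throughout a cell type. LT-HSC Ang II KO replicate 2 (432 CPM), PBS KO replicate 3 (246 CPM) and PBS het replicate 3 (124 CPM) had the highest sums in LT-HSC. In HPC-1 the sum was 43.1 CPM in Ang II KO replicate 2, the library highest in globin, and 175.5 CPM in Ang II WT replicate 3 and 173 CPM in PBS WT replicate 2, of which the latter held 49.8 CPM of globin. Whether the globin RNA came with other cell types or with free RNA was not tested.

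Between the cell types, 8 of the 9 genes differed when LT-HSC was set against HPC-1 over the 5 conditions with replicates (PBS het, PBS KO, Ang II WT, Ang II het and Ang II KO; 16 LT-HSC and 17 HPC-1 libraries). The 4 globin genes, Alas2, Slc4a1 and Car2 were higher in LT-HSC, Tfrc was lower, and Car1 did not pass the threshold of 5% on p values adjusted over all genes tested. Both edgeR and DESeq2 called these 8, where edgeR called 36.3% of all 18013 genes tested in this comparison (3220 higher and 3323 lower). Without LT-HSC PBS KO replicate 3, edgeR no longer called the 4 globin genes, Alas2 and Slc4a1. Without LT-HSC PBS het replicate 3 it no longer called Hba-a1, Hba-a2, Hbb-bs and Alas2. The LT-HSC and HPC-1 libraries overlapped for each of the 9. Of all genes tested, 0.111% had LT-HSC and HPC-1 libraries that did not overlap.

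**Figure D2:**
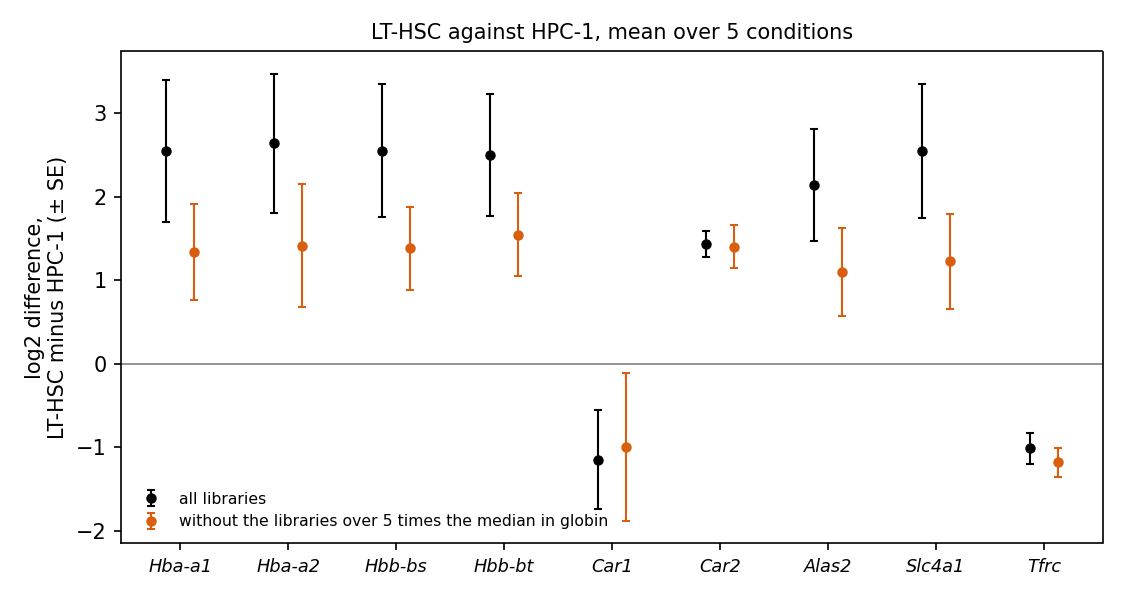
Log2 difference of LT-HSC minus HPC-1 (± SE, mean over 5 conditions) for the 9 genes, with all libraries (black) and without those above 5 times the median of their cell type in globin (orange), an omission that lowers globin levels by construction. The globin genes, Alas2 and Slc4a1 go from 2.14 to 2.64 down to 1.10 to 1.55, while Car2 goes from 1.44 to 1.40 and Tfrc from -1.01 to -1.18. The cut was higher in LT-HSC (282 CPM) than in HPC-1 (127 CPM), which favours LT-HSC in the orange values of the globin genes.

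The alpha-globin genes Hba-a1 (ENSMUSG00000069919, chromosome 11, 32283511 to 32284465) and Hba-a2 (ENSMUSG00000069917, chromosome 11, 32296489 to 32297298, both plus strand, mm10) encode the alpha chains of adult hemoglobin. Hba-a2 was at 7.13 CPM in the LT-HSC PBS WT library, 3.40, 18.7 and 303 CPM in PBS het, 0.857, 13.6 and 1317 CPM in PBS KO, 22.15 and 55.25 CPM in Ang II WT, 21.2, 138.5, 5.66 and 68.8 CPM in Ang II het, and 11.8, 995, 50.3 and 197 CPM in Ang II KO. In HPC-1 it was at 3.15 and 24.9 CPM in PBS WT, 0, 2.93 and 14.0 CPM in PBS het, 5.74, 0.923 and 3.30 CPM in PBS KO, 4.49, 23.8 and 81.5 CPM in Ang II WT, 12.7, 108, 73.0 and 5.49 CPM in Ang II het, and 10.4, 231, 64.0 and 94.3 CPM in Ang II KO. The libraries high in summed globin were the high ones here too, and the cell types overlapped over most of their range. Hba-a1 ran from 0.839 to 497 CPM in LT-HSC (median 9.56) and from 0 to 74.8 CPM in HPC-1 (median 5.10).

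Averaged over the 5 conditions, Hba-a2 was higher in LT-HSC by 2.64 on the log2 scale (SE 0.831, adjusted p = 0.0139), with a mean of the condition means of 193 CPM against 39.1 CPM. Hba-a1 was higher by 2.55 (SE 0.853, adjusted p = 0.0206). Either call ended without LT-HSC PBS KO replicate 3 (Hba-a2 1.504, adjusted p = 0.131; Hba-a1 1.57, adjusted p = 0.148) and without LT-HSC PBS het replicate 3 (Hba-a2 2.02, adjusted p = 0.061; Hba-a1 2.04, adjusted p = 0.0727). The Hba-a1 call also ended without LT-HSC Ang II het replicate 2 (2.09, adjusted p = 0.0516) or without LT-HSC Ang II WT replicate 2 (1.76, adjusted p = 0.617), which left that group with 1 library.

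The beta-globin genes Hbb-bs (ENSMUSG00000052305, chromosome 7, 103826534 to 103828096) and Hbb-bt (ENSMUSG00000073940, chromosome 7, 103812524 to 103813996, both minus strand, mm10) encode the beta chains. Hbb-bs was at 2.85 CPM in the LT-HSC PBS WT library, 3.40, 14.9 and 223 CPM in PBS het, 1.28, 6.94 and 753.5 CPM in PBS KO, 21.2 and 40.8 CPM in Ang II WT, 6.60, 111, 3.78 and 36.6 CPM in Ang II het, and 13.3, 711, 44.8 and 105 CPM in Ang II KO. HPC-1 held 1.97 and 10.2 CPM in PBS WT, 0.993, 4.55 and 5.49 CPM in PBS het, 5.10, 2.15 and 3.30 CPM in PBS KO, 6.58, 16.8 and 58.9 CPM in Ang II WT, 7.73, 77.6, 46.9 and 3.39 CPM in Ang II het, and 6.06, 175, 47.2 and 38.1 CPM in Ang II KO. The same libraries were high as for Hba-a2. Hbb-bt ran from 2.41 to 457 CPM in LT-HSC (median 11.7) and from 0 to 53.6 CPM in HPC-1 (median 4.91).

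Hbb-bs was higher in LT-HSC by 2.55 (log2, SE 0.799, adjusted p = 0.0136) and Hbb-bt by 2.501 (SE 0.733, adjusted p = 0.0085). The Hbb-bs call ended without LT-HSC PBS KO replicate 3 (1.41, adjusted p = 0.143) or without LT-HSC PBS het replicate 3 (1.96, adjusted p = 0.0598). The Hbb-bt call ended without LT-HSC PBS KO replicate 3 (1.59, adjusted p = 0.0659) or without LT-HSC Ang II WT replicate 2 (1.94, adjusted p = 0.257). All 11 libraries above 5 times the median were also left out together, which lowers the values of these genes by construction. The cut was 282 CPM in LT-HSC and 127 CPM in HPC-1, so some HPC-1 libraries were removed at levels below the LT-HSC cut. Such a cut by itself favours LT-HSC. The remaining differences were 1.38 for Hbb-bs, 1.55 for Hbb-bt, 1.34 for Hba-a1 and 1.42 for Hba-a2. They cannot show whether the cell types differ. That alternative was chosen after the values had been seen.

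The copies of each pair are near-identical in sequence, so the split of counts within a pair is uncertain. Over the 20 libraries with at least 100 globin counts, Hba-a2 took 56.8% to 90.8% of the alpha-globin counts (median 70.0%), and Hbb-bs took 43.9% to 100% of the beta-globin counts (median 62.5%). The value of 100% came from HPC-1 Ang II WT replicate 3, which had 136 counts of Hbb-bs and 0 of Hbb-bt, while every other Ang II WT library had counts of both. The globin genes varied together across libraries: the Pearson r of log2 CPM between pairs of them ran from 0.90 to 0.98 in LT-HSC (n = 17) and from 0.54 to 0.96 in HPC-1 (n = 19), where the pairs with Hbb-bt gave the low values. These correlations describe libraries that differ in depth and composition, and each pair is read from the same libraries.

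The other genes of the globin clusters were nearly silent. Of the 7 that the table holds out of 10 listed, Hbb-y, Hbb-bh1, Hbb-bh2 and the pseudogene Hbb-bh0 were at 0 in all 36 libraries. The sum of the remaining 3 (Hba-x, Hbq1a and Hbq1b) was at most 3.02 CPM, in LT-HSC Ang II KO replicate 2, and none of the 7 passed the filter on low counts.

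Alas2 (ENSMUSG00000025270, chromosome X, 150547375 to 150570638, plus strand, mm10), the erythroid enzyme of the committed step of heme synthesis, followed globin. It was at 6.66 CPM in the LT-HSC PBS WT library, 2.43, 2.85 and 28.5 CPM in PBS het, 2.14, 2.95 and 122 CPM in PBS KO, 5.78 and 15.4 CPM in Ang II WT, 4.24, 28.1, 2.73 and 10.1 CPM in Ang II het, and 1.48, 161, 11.0 and 34.3 CPM in Ang II KO. The HPC-1 values were 5.12 and 0.350 CPM in PBS WT, 0.993, 0 and 1.63 CPM in PBS het, 1.91, 0.615 and 3.30 CPM in PBS KO, 2.99, 6.03 and 13.0 CPM in Ang II WT, 4.09, 14.1, 13.5 and 2.10 CPM in Ang II het, and 2.31, 37.6, 15.7 and 8.25 CPM in Ang II KO. The highest libraries were those highest in globin, and the cell types overlapped. Its r with single globin genes was 0.91 to 0.94 in LT-HSC and 0.49 to 0.81 in HPC-1.

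Over the 5 conditions Alas2 was higher in LT-HSC by 2.14 (log2, SE 0.673, adjusted p = 0.0139). The call ended without LT-HSC PBS KO replicate 3 (1.34, adjusted p = 0.0951) or without LT-HSC PBS het replicate 3 (1.74, adjusted p = 0.0574), and without all libraries above 5 times the median in globin (1.10, adjusted p = 0.134). Across the 20 libraries with at least 100 globin counts there were 0.704 to 9.63 Alas2 counts per 100 globin counts (median 6.97).

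Slc4a1 (ENSMUSG00000006574, chromosome 11, 102348824 to 102366203, minus strand, mm10) encodes band 3, the chloride-bicarbonate exchanger of the red cell membrane. In LT-HSC it was at 0 CPM in the PBS WT library, 4.86, 6.34 and 50.8 CPM in PBS het, 0.857, 3.25 and 166 CPM in PBS KO, 5.78 and 5.47 CPM in Ang II WT, 0.471, 24.3, 0.839 and 16.7 CPM in Ang II het, and 1.48, 384.5, 10.8 and 22.6 CPM in Ang II KO. In HPC-1 it was at 2.75 and 7.01 CPM in PBS WT, 0.331, 0.650 and 1.02 CPM in PBS het, 2.23, 1.54 and 1.10 CPM in PBS KO, 2.40, 13.9 and 20.4 CPM in Ang II WT, 1.82, 11.9, 5.21 and 0.646 CPM in Ang II het, and 3.46, 36.9, 19.4 and 10.2 CPM in Ang II KO. LT-HSC Ang II KO replicate 2 exceeded PBS KO replicate 3, as it did for Alas2 and Hba-a1, while the order was reversed for summed globin.

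The difference between cell types was 2.55 on the log2 scale (SE 0.807, adjusted p = 0.0145), higher in LT-HSC. It was no longer called without LT-HSC PBS KO replicate 3 (1.64, adjusted p = 0.0942) or without all libraries above 5 times the median in globin (1.23, adjusted p = 0.116). Slc4a1 counts per 100 globin counts ran from 3.08 to 18.5 (median 6.72) in the 20 libraries with at least 100 globin counts.

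Car2 (ENSMUSG00000027562, chromosome 3, 14886273 to 14900770, plus strand, mm10) encodes the fast cytosolic carbonic anhydrase, which many hematopoietic cells besides erythroid cells also make. It was at 284 CPM in the LT-HSC PBS WT library, 346, 469 and 618 CPM in PBS het, 449, 157 and 502 CPM in PBS KO, 311 and 313 CPM in Ang II WT, 254, 336, 470.1 and 362 CPM in Ang II het, and 331, 394, 535 and 494 CPM in Ang II KO. In HPC-1 it was at 76.7 and 178 CPM in PBS WT, 122, 175 and 204 CPM in PBS het, 184, 216 and 132 CPM in PBS KO, 167, 111 and 143 CPM in Ang II WT, 50.9, 127, 109.9 and 125 CPM in Ang II het, and 130.0, 148, 120.5 and 155 CPM in Ang II KO. Of the 17 LT-HSC libraries, 16 lay above every HPC-1 library, and the exception was PBS KO replicate 2, the library with HPC-1-like markers.

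Car2 was higher in LT-HSC by 1.44 on the log2 scale (SE 0.159, adjusted p = 4.87e-08), at 390.5 CPM against 145 CPM as means of the condition means. The difference was between 1.06 and 1.78 in each of the 5 conditions. It was called in all 33 fits that left out 1 library each (1.38 to 1.51). It rose to 1.51 (adjusted p = 2.21e-10) without PBS KO replicate 2, and without the libraries above 5 times the median in globin it was 1.40 (SE 0.256, adjusted p = 0.000825). Across libraries Car2 had an r of 0.33 to 0.43 with single globin genes in LT-HSC and of -0.06 to 0.10 in HPC-1.

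Car1 (ENSMUSG00000027556, chromosome 3, 14766216 to 14808368, minus strand, mm10) lies in the same gene cluster as Car2 and Car3 and encodes the slower cytosolic enzyme that marks early erythroid progenitors and red cells. It was at 5.71 CPM in the LT-HSC PBS WT library, 9.23, 8.24 and 10.2 CPM in PBS het, 0.857, 21.7 and 17.2 CPM in PBS KO, 14.4 and 6.47 CPM in Ang II WT, 0, 0, 12.2 and 3.58 CPM in Ang II het, and 0.740, 12.9, 10.6 and 9.64 CPM in Ang II KO. In HPC-1 it was at 26.8 and 101 CPM in PBS WT, 0.662, 0.976 and 82.0 CPM in PBS het, 8.29, 22.2 and 20.4 CPM in PBS KO, 63.2, 24.4 and 19.9 CPM in Ang II WT, 0.455, 7.30, 9.56 and 23.7 CPM in Ang II het, and 4.33, 13.6, 2.61 and 36.2 CPM in Ang II KO. High values occurred in single HPC-1 libraries that were not those high in globin, with PBS WT replicate 2, PBS het replicate 3 and Ang II WT replicate 1 at the top. The 5 HPC-1 WT libraries ran from 19.9 to 101 CPM, the 7 het from 0.455 to 82.0 CPM and the 7 KO from 2.61 to 36.2 CPM, so that the genotypes overlapped.

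Car1 had a lower mean in LT-HSC than in HPC-1 (9.07 against 21.0 CPM), but the log2 difference of -1.15 did not pass the test (SE 0.595, adjusted p = 0.143), nor did it in any of the 33 fits that left out 1 library. It was called with the mean level of Y-linked genes as a covariate (-1.56, SE 0.504, adjusted p = 0.0168) and without a filter on low counts (-1.15, SE 0.199, adjusted p = 1.03e-07). The r of Car1 with single globin genes was low, at 0.12 to 0.25 in LT-HSC and 0.06 to 0.19 in HPC-1.

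Tfrc (ENSMUSG00000022797, chromosome 16, 32608920 to 32632794, plus strand, mm10) encodes the receptor that brings transferrin-bound iron into dividing cells and, at high levels, into erythroblasts. In LT-HSC it was at 83.7 CPM in the PBS WT library, 53.4, 70.4 and 70.8 CPM in PBS het, 26.1, 112 and 84.6 CPM in PBS KO, 86.7 and 54.75 CPM in Ang II WT, 63.6, 46.4, 59.2 and 52.2 CPM in Ang II het, and 44.0, 187, 59.5 and 42.5 CPM in Ang II KO. In HPC-1 it was at 239 and 226 CPM in PBS WT, 134, 93.3 and 135 CPM in PBS het, 94.0, 116 and 103 CPM in PBS KO, 224, 225 and 177 CPM in Ang II WT, 167, 110, 106 and 134 CPM in Ang II het, and 132, 154, 202 and 127.5 CPM in Ang II KO. All but 2 LT-HSC libraries lay below every HPC-1 library, the exceptions being Ang II KO replicate 2 and PBS KO replicate 2. Among the HPC-1 libraries, 5 of the 6 highest were WT.

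Tfrc was lower in LT-HSC, with a log2 difference of -1.01 (SE 0.187, adjusted p = 9.42e-05) and means of the condition means of 69.7 against 143.5 CPM. The difference was negative in each of the 5 conditions, from -1.56 in Ang II WT to -0.48 in PBS KO. It was called in all 33 fits that left out 1 library (-1.16 to -0.91), and without the libraries above 5 times the median in globin it was -1.18 (SE 0.174, adjusted p = 4.08e-05). Its r with single globin genes was 0.29 to 0.46 in LT-HSC and -0.10 to 0.28 in HPC-1.

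**Figure D3:**
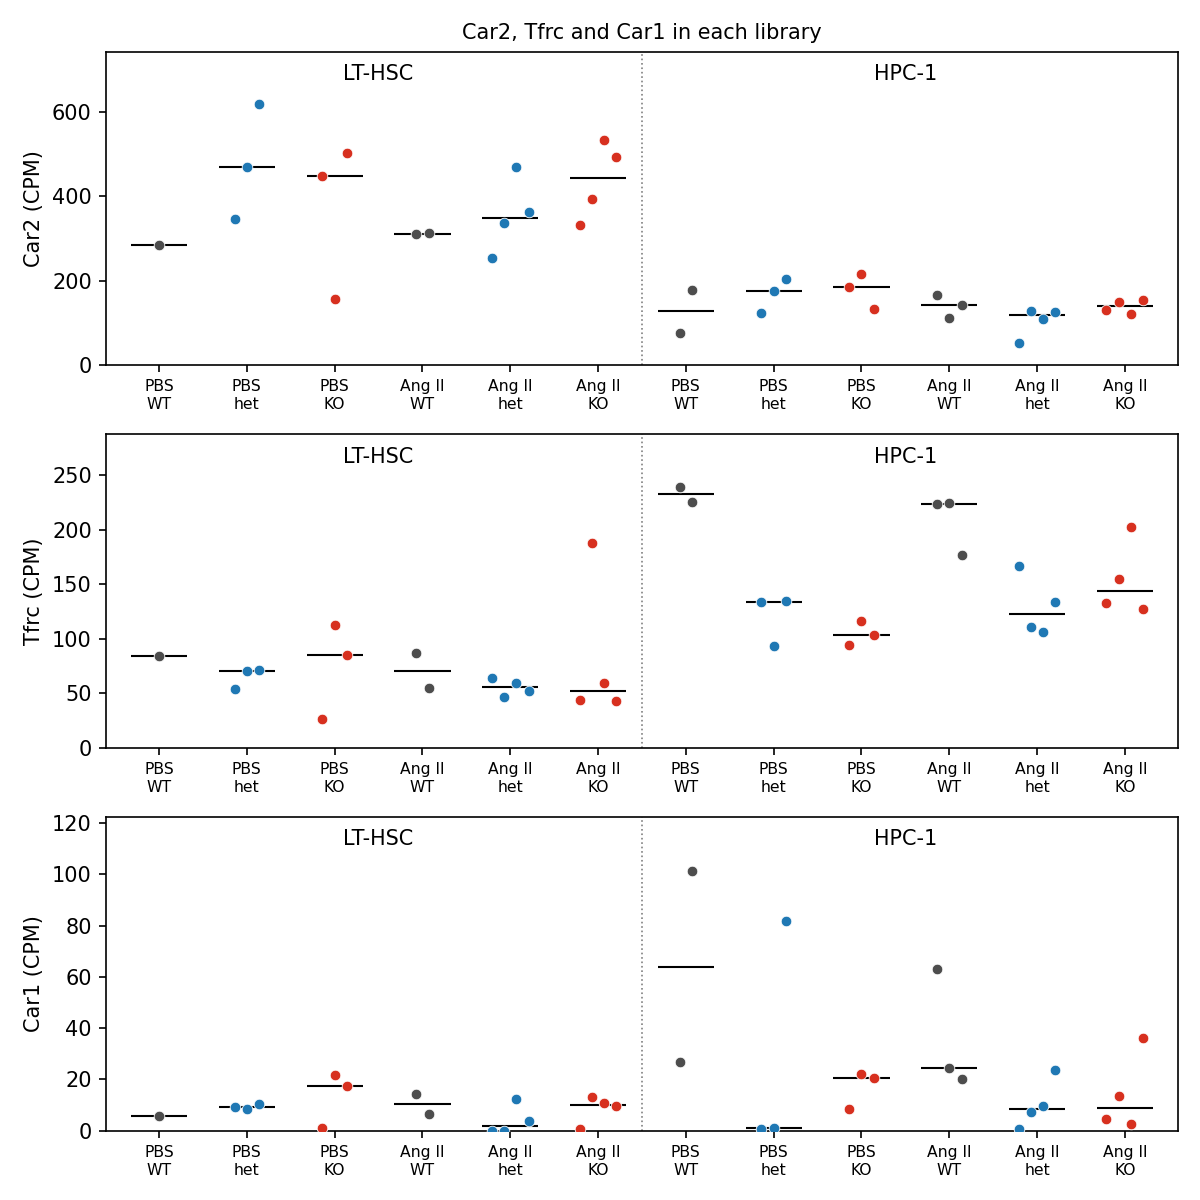
CPM of Car2, Tfrc and Car1 in each library (points; linear axes) by cell type, agent and genotype (WT grey, het blue, KO red), with the group median as a black bar. Car2 lies between 157 and 618 CPM in LT-HSC and between 50.9 and 216 CPM in HPC-1, Tfrc in the 5 HPC-1 WT libraries between 177 and 239 CPM, and Car1 reaches 101 CPM in a single HPC-1 library.

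Split by condition, the globin difference between cell types was uneven. For Hba-a2 the log2 difference of LT-HSC minus HPC-1 was 4.14 (SE 2.03) in PBS het and 7.06 (SE 2.33) in PBS KO, but 0.11 (SE 2.03) in Ang II WT, 0.26 (SE 1.52) in Ang II het and 1.65 (SE 1.5) in Ang II KO. Hbb-bs gave 4.41 (SE 2.02), 6.18 (SE 2.14), 0.21 (SE 1.95), 0.25 (SE 1.47) and 1.72 (SE 1.43) in the same order. In Ang II WT the difference was negative for Hba-a1 (-0.26, SE 2.08) and Slc4a1 (-1.09, SE 2.01). It was positive there for Hbb-bt (1.21, SE 1.91) and Alas2 (0.56, SE 1.66). PBS WT, which has 1 LT-HSC library and is not in the mean, gave -1.15 for Hba-a1, -0.99 for Hba-a2 and -1.105 for Hbb-bs. It gave 0.205 for Hbb-bt, 1.31 for Alas2 and -7.18 for Slc4a1, which had no counts in that LT-HSC library. The PBS het and PBS KO values set an LT-HSC group with 1 globin-rich library against HPC-1 groups without any. The difference between these conditions was not tested.

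Compared per kilobase of exon, Car2 had the highest median level of the 9 genes in both cell types, at 149 CPM per kb in LT-HSC and 54.5 CPM per kb in HPC-1. In LT-HSC it was followed by Hba-a2 (33.2), Hbb-bs (27.6), Hbb-bt (16.7), Hba-a1 (11.8), Tfrc (9.62), Car1 (7.40), Alas2 (2.77) and Slc4a1 (1.18 CPM per kb). In HPC-1 the order was Car2, Tfrc (21.7), Hba-a2 (19.1), Car1 (16.0), Hbb-bs (8.57), Hbb-bt (6.98), Hba-a1 (6.28), Alas2 (1.37) and Slc4a1 (0.563 CPM per kb). Neighbours in these orders overlapped between libraries.

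Between genotypes in LT-HSC no member was called by edgeR with the filter on low counts. Without that filter edgeR called 6 members in Ang II KO against WT (833 of all genes), 6 in Ang II KO against het (249 of all genes) and 6 in PBS KO against het (193 of all genes). It called 0 in Ang II het against WT (496 of all genes). For Ang II KO against WT, 0 of 9 were called where 1.69% of all 16365 genes tested were, with 0 at an unadjusted p under 0.05 (17.7% of all genes) and 0 called by DESeq2. Car2 was the only one of the 9 whose groups did not overlap there, beside 23.8% of all genes, at 331 to 535 CPM in KO and 311 to 313 CPM in WT (log2 difference 0.50, SE 0.382, adjusted p = 0.513). For Ang II het against WT edgeR called 0 of 9 against 0.831% of all genes, with 0 at an unadjusted p under 0.05 (15.7% of all genes) and 0 by DESeq2. Ang II KO against het gave 0 of 9 by edgeR against 0% of all genes, 0 at an unadjusted p under 0.05 (2.6% of all genes) and 0 by DESeq2, and Slc4a1 had the largest difference (3.29, SE 1.85, adjusted p = 1). PBS KO against het likewise gave 0 of 9 against 0% of all genes, 0 at an unadjusted p under 0.05 (3.99% of all genes) and 0 by DESeq2. The standard errors of the globin differences in these comparisons were 1.67 to 2.72 on the log2 scale. The single PBS WT library had no replicate and entered no genotype test.

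Between agents in LT-HSC the calls were also 0. Without the filter on low counts 4 members were called in het (57 of all genes) and 0 in KO (104 of all genes). Ang II against PBS gave 0 of 9 by edgeR in het mice against 0% of all genes, with 0 at an unadjusted p under 0.05 (4.93% of all genes) and 0 by DESeq2. In KO mice it gave 0 of 9 by edgeR against 0% of all genes, with 0 at an unadjusted p under 0.05 (0.917% of all genes) and 0 by DESeq2. Hba-a2 differed by -0.93 (SE 1.95) in het and by -0.49 (SE 1.92) in KO, with overlapping libraries. The interaction of agent and genotype (KO against het) was called for 0 of 9 by edgeR against 0% of all genes in LT-HSC, with 0 at an unadjusted p under 0.05 (2.53% of all genes) and 0 by DESeq2. Without the filter on low counts a member was called in this interaction (71 of all genes).

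In HPC-1 the WT groups had the highest median Tfrc level under either agent. In PBS mice Tfrc was at 94.0, 116 and 103 CPM in KO and at 239 and 226 CPM in WT, with no overlap and a log2 difference of -1.16 (SE 0.223, adjusted p = 0.0752). It did not pass the edgeR threshold in this comparison, where edgeR called 0 of 9 members and 0.0152% of all 13199 genes. Tfrc was the only member at an unadjusted p under 0.05 (6.55% of all genes). DESeq2 called 14 genes of the whole table, 1 of them a member, Tfrc (-1.14, adjusted p = 0.000948). Without the filter on low counts edgeR also called Tfrc (adjusted p = 0.00152), among 52 genes called. It did so too with the Y-linked covariate (0.035, 9 genes called) and with only the compared groups (0.0121, 28 genes called). Its adjusted p ran from 0.000948 to 0.0754 over the alternatives that kept all libraries, and from 0.215 to 0.735 when 1 library was left out. These groups did not overlap for 3 of 9 members and for 28.7% of all genes, the others being Car1 (-1.93, SE 1.5, adjusted p = 0.864) and Slc4a1 (-1.60, SE 1.04, adjusted p = 0.815), beside the same 0.0152% of genes called.

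PBS het against WT in HPC-1 gave 0 of 9 by edgeR against 0% of all genes, 2 at an unadjusted p under 0.05 (4.78% of all genes) and 0 by DESeq2. These 2 were Tfrc (-0.95, SE 0.223, adjusted p = 0.482), at 93.3 to 135 CPM against 226 to 239 CPM, and Slc4a1 (-2.76, SE 1.11, adjusted p = 1), at 0.331 to 1.02 CPM against 2.75 to 7.01 CPM. The groups did not overlap for either, nor for Hba-a1, and did not for 23.6% of all genes. In Ang II mice het against WT gave 0 of 9 by edgeR against 0% of all genes, 1 at an unadjusted p under 0.05 (7.39% of all genes) and 0 by DESeq2. The 1 was again Tfrc (-0.72, SE 0.188, adjusted p = 0.51), with 106 to 167 CPM in het below 177 to 225 CPM in WT, where 6.42% of all genes did not overlap.

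Ang II KO against WT in HPC-1 gave 0 of 9 by edgeR against 0% of all genes, 1 at an unadjusted p under 0.05 (5.01% of all genes) and 0 by DESeq2, which was Tfrc (-0.46, SE 0.187, adjusted p = 0.954) with overlapping groups. These comparisons share their WT libraries within an agent, so they are not separate measurements of the same difference. Ang II KO against het gave 0 of 9 by edgeR against 0% of all genes, 1 at an unadjusted p under 0.05 (2.84% of all genes) and 0 by DESeq2, namely Slc4a1 (1.89, SE 0.774, adjusted p = 1). PBS KO against het gave 0 of 9 by edgeR against 0% of all genes, 0 at an unadjusted p under 0.05 (1.14% of all genes) and 0 by DESeq2, and only Slc4a1 had groups that did not overlap (6.83% of all genes).

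The largest fitted difference of a globin gene outside the comparison of cell types came from Ang II against PBS in HPC-1, where no member was called. In KO mice edgeR called 0 of 9 against 0% of all genes, 7 members were at an unadjusted p under 0.05 (1.85% of all genes), and DESeq2 called 0. Hba-a2 was at 10.4, 231, 64.0 and 94.3 CPM after Ang II and at 5.74, 0.923 and 3.30 CPM after PBS, a difference of 4.91 (SE 1.61, adjusted p = 1). Hbb-bs differed by 4.24 (SE 1.39), Slc4a1 by 3.42 (SE 0.937) and Tfrc by 0.55 (SE 0.192), each with an adjusted p of 1. Without the filter on low counts Slc4a1 was called (3.41, SE 0.748, adjusted p = 0.0167). The groups did not overlap for these 4 members and for 4.25% of all genes. The globin genes vary together across libraries and are not separate measurements. Hba-a1 (3.07, SE 1.34), Hbb-bt (2.78, SE 1.27) and Alas2 (2.99, SE 0.997) overlapped between agents. Leaving out the libraries above 5 times the median in globin lowers these differences by construction, since all 6 in HPC-1 are from Ang II mice, and it left 1 Ang II KO library (replicate 1), whose group is assumed to vary like the others. The difference then was -0.19 (SE 1.21) for Hba-a1, 1.64 (SE 1.69) for Hba-a2, 0.785 (SE 0.996) for Hbb-bs and -0.60 (SE 1.16) for Hbb-bt. For Alas2 it was 0.225 (SE 1.54) and for Slc4a1 1.095 (SE 1.23).

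In het mice Ang II against PBS in HPC-1 gave 0 of 9 by edgeR against 0% of all genes, 5 at an unadjusted p under 0.05 (3.93% of all genes) and 0 by DESeq2. Hba-a1 was at 2.73, 67.5, 22.6 and 1.62 CPM after Ang II and at 2.32, 0 and 1.42 CPM after PBS (4.16, SE 1.51, adjusted p = 1). Alas2 was higher in each Ang II het library than in each PBS het library (3.11, SE 1.06, adjusted p = 1), at levels of 2.10 to 14.1 CPM against 0 to 1.63 CPM, where 4.39% of all genes did not overlap. Hbb-bs (3.12, SE 1.34), Slc4a1 (2.69, SE 1.01) and Car2 (-0.70, SE 0.288) overlapped. With het replicates 2 and 3 and the other libraries above 5 times the median in globin left out, again lower by construction, the difference was 0.72 (SE 1.03) for Hba-a1, 0.51 (SE 0.818) for Hbb-bs, 0.68 (SE 1.16) for Slc4a1 and 1.68 (SE 1.25) for Alas2.

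In WT mice Ang II against PBS in HPC-1 gave 0 of 9 by edgeR against 0% of all genes, 0 at an unadjusted p under 0.05 (3.18% of all genes) and 0 by DESeq2, and Tfrc alone did not overlap, beside 19.1% of all genes (177 to 225 CPM against 226 to 239 CPM; -0.14, SE 0.224). The interaction of agent and genotype (KO against het) in HPC-1 was called for 0 of 9 by edgeR against 0% of all genes, with 0 at an unadjusted p under 0.05 (1.28% of all genes) and 0 by DESeq2. The summed neutrophil granule genes of HPC-1 were at 2431 to 4882 CPM after PBS and 3795 to 7133 CPM after Ang II in KO, and 2737 to 5279 CPM against 5520 to 7290 CPM in het. Mpo was the most abundant of these genes, and their part in the globin values was not tested.

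Among erythroid transcription factors and heme synthesis genes, members were called in either direction between LT-HSC and HPC-1. Among 15 erythroid transcription factors edgeR called 9 higher in LT-HSC and 1 lower (66.7% called, against 36.3% of all genes; median log2 difference 0.59, against 0.03 over all genes). Gata2 (1.42, adjusted p = 3.82e-10), Zfpm1, the GATA partner FOG1 (2.05, adjusted p = 4.64e-10), and Tal1 (0.72, adjusted p = 2.41e-09) led, and Lyl1 was lower (-0.31, adjusted p = 0.0206). Lmo2 was the most abundant, with a median of 709 CPM in LT-HSC and 452 CPM in HPC-1. Of 12 heme synthesis genes besides Alas2, 4 were higher and 2 lower (50.0% called; median 0.08). Fech (0.54), Urod (0.41) and Cpox (0.37) were higher, while Alas1, the housekeeping counterpart of Alas2, was lower (-1.70, SE 0.206, adjusted p = 2.57e-07; 42.7 against 141 CPM), as was Tmem14c (-0.48).

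Iron genes went mainly the other way. Of 20 genes for iron uptake and handling, 3 were higher and 11 lower in LT-HSC (70.0% called; median -0.33). The transferrin gene Trf (-2.53, adjusted p = 1.42e-08) and the ferrireductase gene Steap3 (-1.30, adjusted p = 3.23e-07) were among the lower, and Slc48a1 (0.70), Tfr2, the second transferrin receptor (0.71), and Hmox1 (1.74) were higher. Among 8 genes whose mRNA carries an iron responsive element, Tfrc and Alas2 included, 2 were higher and 3 lower (62.5% called; median 0.01), with Epas1 (4.04, adjusted p = 2.45e-09) and Alas2 higher and Tfrc and Fth1 (-0.27) among the lower.

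Of 22 red cell membrane and skeleton genes, 10 were higher in LT-HSC and 1 lower (50.0% called; median 0.82). Epb41 (0.94, adjusted p = 2.74e-10), Add1 (0.47) and Tmod1 (3.11) were higher and Cd47 was lower (-0.52). Among 19 early erythroid progenitor genes in the table of 20 listed, 10 were higher and 1 lower (57.9% called; median 0.64), with Mfsd2b (1.64), Tspan33 (1.82) and Samd14 (1.34) higher and Csf2rb lower (-2.09, adjusted p = 2.76e-06). Among 21 late erythroblast and reticulocyte genes of 22 listed, 8 were higher and 4 lower (57.1% called; median 0.32). Tent5c (2.70) and Isg20 (1.27) were among the higher, and Gpx1 (-0.81), Bsg (-0.29) and Cat (-0.22) were lower. Ubb was the most abundant of the late genes in both cell types. Many genes of these lists are also active in stem cells and megakaryocytes.

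Other carbonic anhydrases were low, at a sum of 14.7 to 37.4 CPM in LT-HSC and 9.55 to 43.3 CPM in HPC-1 over 13 genes. Of 8 tested, 1 was higher in LT-HSC (Car5b, 1.62) and 2 lower (Car12, -1.46, and Car3, -1.74), which is 37.5% called. Of 8 bicarbonate and proton transporter genes, 4 were higher and 1 lower (62.5% called; median 0.30), with Slc4a3 (3.53) and Atp6v1a (0.32) among the higher and Slc4a7 lower (-0.57). Outside the cell type comparison, Car4, which is also on the list of intestinal epithelium genes, was read at a mean of 14.7 CPM in LT-HSC Ang II WT and at 0 in Ang II het and KO. In both Ang II comparisons with WT it was called together with 11 more of 19 tested intestinal genes, all lower than in WT. In LT-HSC Ang II KO against WT, where 1.69% of all genes were called, 1 of 20 iron genes was higher, Ftl1 (1.21, SE 0.229, adjusted p = 0.0118), as was 1 of 15 erythroid transcription factors, Klf3 (1.27, SE 0.284, adjusted p = 0.0291). Whether these calls hold under the alternatives was not tested.

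Markers of other lineages gave the setting of these values in LT-HSC against HPC-1. Of 9 megakaryocyte and platelet genes 8 were tested and all 8 were higher in LT-HSC, at a sum of 100 to 2146 CPM (median 974.5; Vwf the most abundant) against 74.4 to 165 CPM (median 100; Itga2b). Of 7 red cell surface genes 2 were higher, among them Hemgn (0.99). Of 10 neutrophil granule genes 1 was higher (S100a9) and 4 lower (Prtn3, Ctsg, Mpo and Elane), at a sum of 29.6 to 8882 CPM (median 55.2) against 2431 to 7290 CPM (median 5520), with Mpo the most abundant in either cell type. Eosinophil and mast cell genes (3 of 8 lower, Cpa3, Gzmb and Mcpt8) ran from 0.475 to 690.5 CPM in LT-HSC, with Prg2 the most abundant, and from 24.2 to 136 CPM in HPC-1, with Cpa3. Macrophage genes (2 of 8 lower, Csf1r and Cd68) ran from 3.85 to 133 CPM and from 32.0 to 127 CPM, with Csf1r the most abundant.

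B lymphoid genes (0 of 2 tested called by edgeR, 0 at an unadjusted p under 0.05) summed to 6.97 to 19.3 CPM in LT-HSC and 2.27 to 18.2 CPM in HPC-1, mostly Cd79b. T lymphoid genes (0 of 1 tested called by edgeR, 0 at an unadjusted p under 0.05) summed to 0.857 to 11.3 and 0.869 to 11.2 CPM, mostly Lck. Intestinal epithelium genes (5 higher and 1 lower of 20 tested, Krt18 the most abundant) ran from 35.7 to 647 CPM and from 30.3 to 360 CPM. Stroma and endothelium genes (5 higher and 1 lower of 8, Pecam1 the most abundant) ran from 85.9 to 195 CPM and from 147 to 212 CPM. Kidney intercalated cell genes, which share acid-base enzymes with red cells, summed to at most 5.07 CPM (0 of 1 tested called by edgeR, 0 at an unadjusted p under 0.05), with Aqp6 at 0 throughout HPC-1.

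The genes whose levels ran most like those of the members were ranked by the lower of the Pearson r in LT-HSC (n = 17) and in HPC-1 (n = 19) among 18004 genes. The ranking describes libraries that differ in group, depth and composition. For summed globin they included Dmtn (0.696 and 0.767), Apol11b (0.872 and 0.608), Vcam1 (0.641 and 0.601) and Cdr2 (0.864 and 0.599). For Car1 they were Add2 (0.680 and 0.767), Ywhaz (0.747 and 0.674), ENSMUSG00000062417 (0.715 and 0.637), Pklr (0.627 and 0.775) and Atp1b2 (0.623 and 0.782). Car2 ran most like Gfi1b (0.725 and 0.781), Large2 (0.669 and 0.691), Pitpnm1 (0.717 and 0.654), Aqp9 (0.721 and 0.647) and Eng (0.700 and 0.645). Tfrc ran most like Cpa3 (0.717 and 0.687), Odc1 (0.687 and 0.774), Csf2rb (0.688 and 0.663), Tmed10 (0.663 and 0.675) and Alox15 (0.661 and 0.759). Without the library highest in globin of each cell type, the r of Apol11b fell to 0.450 in HPC-1.

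The sequence before the RefSeq transcription start is shown for 4 of the 6 members that the RefSeq promoter table holds (build GRCm38.p6; Car1, Car2 and Slc4a1 are missing). Whether these sequences bear on the shared variation of the genes across libraries was not tested. The RefSeq starts differ from the Ensembl gene coordinates given above, so the windows shown reach into the Ensembl genes. Each is 250 bases long and is written 5′ to 3′ on the gene's strand, and the capitals mark matches on either strand to a GATA motif (AGATAA or AGATAG or TGATAA or TGATAG), to a CACCC box (the letters CACCC), to a CCAAT box (the letters CCAAT) and to a TATA box (the letters TATAA), which can overlap or adjoin. Hba-a2 is at chr11:32296242-32296491 (plus), Hbb-bs at chr7:103827929-103828178 (minus), Hbb-bt at chr7:103813924-103814173 (minus) and Alas2 at chrX:150547167-150547416 (plus).
Hba-a2: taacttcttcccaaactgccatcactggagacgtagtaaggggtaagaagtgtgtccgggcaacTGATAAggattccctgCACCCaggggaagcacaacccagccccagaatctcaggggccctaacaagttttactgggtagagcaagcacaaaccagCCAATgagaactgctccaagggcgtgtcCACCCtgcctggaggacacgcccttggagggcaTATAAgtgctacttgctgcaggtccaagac
Hbb-bs: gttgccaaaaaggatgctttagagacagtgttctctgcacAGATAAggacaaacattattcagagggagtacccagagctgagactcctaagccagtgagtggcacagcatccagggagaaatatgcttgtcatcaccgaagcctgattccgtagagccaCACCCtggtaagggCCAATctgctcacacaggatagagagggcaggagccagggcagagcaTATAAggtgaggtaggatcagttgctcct
Hbb-bt: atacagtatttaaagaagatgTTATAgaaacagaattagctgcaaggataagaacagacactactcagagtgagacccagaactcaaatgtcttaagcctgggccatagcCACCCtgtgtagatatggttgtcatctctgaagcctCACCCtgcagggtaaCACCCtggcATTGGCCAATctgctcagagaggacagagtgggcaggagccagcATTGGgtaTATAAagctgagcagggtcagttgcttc
Alas2: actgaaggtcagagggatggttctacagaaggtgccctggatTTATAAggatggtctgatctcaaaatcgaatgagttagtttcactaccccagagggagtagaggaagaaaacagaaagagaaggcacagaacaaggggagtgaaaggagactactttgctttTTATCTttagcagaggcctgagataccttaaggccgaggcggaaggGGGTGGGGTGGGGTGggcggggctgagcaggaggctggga
Among all 32851 promoters of this length, 26.5% held a GATA match, 52.0% a CACCC match, 33.8% a CCAAT match and 22.8% a TATAA match, and 3.92% held a GATA match together with a CACCC match and a CCAAT match. Hba-a2 and Hbb-bs held all 4 motifs, with 1 GATA and 1 CCAAT match each. Hbb-bt had no GATA match, 3 CACCC and 3 CCAAT matches, and Alas2 had 1 GATA, 3 CACCC and 2 TATAA matches and no CCAAT match. The 2 TATAA matches of Alas2 are 1 stretch read on both strands, from -208 to -203 relative to the start. The promoters of Hba-a1 and Hba-a2 were identical over all 247 bases they share, whereas Hbb-bs and Hbb-bt were identical at 127 of 249 positions (51.0%) without gaps. Of the 2 Tfrc promoters in the table neither had a GATA match. A match is a stretch of letters and not a measured binding site.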

How the data were processed

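The deposited table held RSEM expected counts per Ensembl gene in whole numbers, which the authors made from stranded total RNA libraries. The submitters' processing notes name Bowtie2, RSEM 1.2.31, DESeq2 and mm10, whereas the methods name STAR for alignment, and neither gives the Ensembl release. Symbols were matched for 37570 of 38887 genes (99.63% of counts). All 36 libraries were used (1980283 to 6861078 counts). Groups followed the labels. In R 4.3.3, edgeR 4.0.16 (filterByExpr, TMM, robust quasi-likelihood F test) was fitted to all genes, with 12 groups for LT-HSC against HPC-1 and 6 groups within each cell type, and p values were adjusted by Benjamini-Hochberg at 5%. Log2 CPM used a prior count of 2. DESeq2 1.42.0 was run on the same groups. Beside the members, the genes named were up to 3 per direction with the smallest adjusted p in each list and the 5 most alike in pattern, apart from a few genes not reported here. The members, the lists of erythroid genes and cell type markers, and the comparisons were chosen with earlier results of these data known. Alternatives were upper-quartile scaling, library sizes without globin, no filter, a replicate block, a covariate of Y-linked genes, only the compared groups, DESeq2 and leaving out each library. Leaving out the libraries rich in globin, LT-HSC PBS KO replicate 2, or the WT libraries was added after seeing the data. The fits were tested on simulated data. PBS WT was left out of tests in LT-HSC, where it has 1 library.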

Additional observations from a re-analysis of the deposited data

Results flagged for a closer look

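In groups of 4 libraries, a library was taken as far from the others when its gap to the nearest one took more of the group's range than Dixon's critical ratio for 4 values allows. Of 40 groups and quantities tested, 7 held such a library, where chance gives about 1 in 20 for normally distributed values. CPM of these genes are skewed, so that rate may not apply here. The 7 share 2 libraries and are not independent. Hba-a1 in LT-HSC Ang II het replicate 2 was at 98.8 CPM (ratio 0.911), with the other 3 libraries at 0.839 to 9.56 CPM. The remaining 6 were all in LT-HSC Ang II KO replicate 2. They were Hba-a1 at 497 CPM (ratio 0.882; others 5.55 to 63.5 CPM), Hbb-bs at 711 CPM (0.869; 13.3 to 105 CPM) and Hbb-bt at 414 CPM (0.849; 7.40 to 68.8 CPM). Slc4a1 was at 384.5 CPM (0.945; 1.48 to 22.6 CPM), Tfrc at 187 CPM (0.883; 42.5 to 59.5 CPM) and summed globin at 2617 CPM (0.846; 38.1 to 434 CPM). Groups of 3 or fewer libraries, which include LT-HSC PBS KO with its library at 2898 CPM of globin, were not tested.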

How the results depend on the processing

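No called difference changed direction. Among differences not called, Hba-a1 (3.07 to -0.19) and Hbb-bt (2.78 to -0.60) turned in HPC-1 KO Ang II against PBS without the libraries rich in globin, an omission that lowers them by construction and leaves 1 Ang II KO library. In het the same omission took Hba-a1 from 4.16 to 0.72. In LT-HSC against HPC-1, at least 8 members were called under every alternative that kept all libraries, and Car1 was called as well without a filter (adjusted p = 1.03e-07) and with the Y-linked covariate (0.0168). Leaving out 1 library gave 2 to 8 members called (2 without LT-HSC PBS KO replicate 3, 4 without LT-HSC PBS het replicate 3). Leaving out LT-HSC PBS KO replicate 2 or the WT libraries gave 8. No count is given without all libraries rich in globin, since that cut was set on globin itself and left 1 HPC-1 Ang II KO library. Without a filter on low counts, counts of 0 became 6 in LT-HSC Ang II KO against WT, 6 in Ang II KO against het, 6 in PBS KO against het, 4 in het Ang II against PBS, 1 in the LT-HSC interaction, 1 in HPC-1 PBS KO against WT and 1 (Slc4a1) in HPC-1 KO Ang II against PBS; the cause was not tested. HPC-1 PBS KO against WT also went from 0 to 1 (Tfrc) with the Y-linked covariate, with only the compared groups and with DESeq2; the cause was not tested. A replicate block, which treats libraries of the same number as paired, gave 8 members in LT-HSC against HPC-1 and 0 elsewhere, where libraries of a cell type had a median r of 0.046 when they shared a number and of -0.0195 when they did not. For libraries of the same number, agent and genotype in the other cell type the median r was 0.0685, with 7 of 16 pairs over 0.1. Of all genes, LT-HSC Ang II KO against WT called 277, and 833 without a filter, 780 with DESeq2, 97 with the block, 32 with only the compared groups, 14 without the libraries rich in globin and 98 to 627 with 1 library left out. Ang II het against WT called 136, and 496, 437, 39, 37, 22 and 53 to 565 in the same order, and 83 with the Y-linked covariate (191 for KO against WT). HPC-1 PBS KO against WT called 2, and 52 without a filter, 28 with only the compared groups, 14 with DESeq2, 9 with the Y-linked covariate, 7 with the block and 0 to 1 with 1 library left out. Rank correlation lowered the smaller r of 9 of the 20 most alike genes by over 0.1, to 0.344 for Eng with Car2. Depth limits the low genes: Car1 had 3 counts or fewer in 4 LT-HSC libraries and Alas2 in 4 HPC-1 libraries.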
